A study of Rattus norvegicus with 415 samples.

Results

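Genes of adipocyte identity and lipid handling were followed through the adipose tissue samples of a study of outbred rats (Rattus norvegicus). The list held 6 genes, chosen by identifier for what they are known to do. No rule on their values was used, but earlier results of these data were known when the list was made. Of these, 5 were rows of the table of 18358 genes: Pparg (ENSRNOG00000008839), Cebpa (ENSRNOG00000010918), Lpl (ENSRNOG00000012181), Cd36 (ENSRNOG00000005906) and Fabp4 (ENSRNOG00000010805). Pnpla2 (ENSRNOG00000018736), which encodes a triglyceride lipase of the lipid droplet, was not a row of the table and was not analysed here. All 5 rows passed the filter on low values (above 1 FPKM in no fewer than 20% of samples), as did 16131 genes in all. FPKM gives the reads of a gene relative to its length and to the depth of the library, here with a scaling factor for each sample.

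All samples carried the same labels, adipose tissue of rats aged 17 weeks, so that they form 1 group and no group was compared with another. The labels used here give no strain beyond outbred, no fat depot, no sex and no treatment. The series set out to link metabolic traits of outbred rats to genes whose expression maps to the same regions of the genome. Each sample title is a number with a suffix. What these mark is not given, and "title number" stands for the number below. Gaps of more than 500 in the numbering split the samples into 3 blocks, with 9.4%, 55.9% and 34.7% of the samples, which serve as possible batches and are no groups of the study. Nothing in the labels says which samples came from related animals. The p-values over samples treat the samples as independent, which those of related animals would not be. Whole reads were recovered behind every FPKM value, and the samples held 2139163 to 6248214 reads in genes, with a median of 4602134.

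PPARG, a nuclear receptor that binds fatty acids, and C/EBP alpha, a leucine zipper factor, are the pair of transcription factors that drive and hold the adipocyte programme, and each is known to support expression of the other. Lipoprotein lipase, encoded by Lpl, is made by adipocytes and frees fatty acids from circulating triglycerides at the capillary wall. CD36 carries long fatty acids across the plasma membrane, and FABP4 (also aP2) carries them inside the cell. Lpl, Cd36 and Fabp4 are known targets of PPARG. In bulk tissue, fewer adipocytes and less RNA of a gene per adipocyte cannot be told apart.

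The promoters of the regulators are shown because these factors regulate the others, and because the relation between Pparg and Cebpa across samples, given further on, still passed its test with sequencing depth removed. RefSeq promoter sequences on GRCr8 matched 3 of the 5 genes, Pparg with 2 starts, Cebpa and Cd36; Lpl and Fabp4 had no entry. The windows are the 250 bases before each start, 5′ to 3′ on the plus strand, and capitals mark the matches to 5 motifs searched on both strands. The motifs were the PPAR/RXR direct repeat with a spacer of 1 base, TTNNGNAA (C/EBP), the strict C/EBP palindrome (whose matches also hold TTNNGNAA), TATAAA and CCAAT.
Pparg, chr4:150096808-150097057: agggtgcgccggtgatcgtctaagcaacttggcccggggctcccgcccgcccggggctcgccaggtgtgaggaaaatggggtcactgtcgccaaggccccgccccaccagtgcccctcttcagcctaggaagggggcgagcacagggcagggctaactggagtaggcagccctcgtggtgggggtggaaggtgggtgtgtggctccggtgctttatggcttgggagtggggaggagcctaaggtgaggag
Pparg, chr4:150154522-150154771: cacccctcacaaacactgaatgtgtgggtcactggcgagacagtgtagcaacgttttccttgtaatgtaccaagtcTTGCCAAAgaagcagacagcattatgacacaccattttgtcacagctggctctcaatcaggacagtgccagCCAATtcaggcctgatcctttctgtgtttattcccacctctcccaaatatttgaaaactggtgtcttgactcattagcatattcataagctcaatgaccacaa
Cebpa, chr1:96896334-96896583: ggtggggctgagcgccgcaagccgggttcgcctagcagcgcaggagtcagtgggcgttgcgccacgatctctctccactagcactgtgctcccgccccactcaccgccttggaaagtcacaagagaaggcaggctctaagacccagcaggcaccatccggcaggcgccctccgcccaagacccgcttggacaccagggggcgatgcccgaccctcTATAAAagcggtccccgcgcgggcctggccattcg
No motif matched in the window of the upstream Pparg start. The window of the downstream Pparg start held a C/EBP match on the minus strand at bases -174 to -167 from the start and a CCAAT at -103 to -99. The Cebpa window held a TATAAA at -35 to -30. Over the 33469 windows of the table, 37.2% held TTNNGNAA, 34.02% CCAAT, 12.9% TATAAA, 0.0508% the PPAR/RXR repeat and 0.00598% the C/EBP palindrome, so that the matches found here are of common kinds. A match describes letters and does not show binding.

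Fabp4 and Lpl were among the most highly expressed genes of the tissue, Cebpa and Pparg were in the upper range, and the row listed as Cd36 was low. Fabp4 ran from 209.5 to 614.3 FPKM with a median of 282.5, the second highest mean of the 18358 genes. Lpl ran from 150.4 to 379.1 FPKM with a median of 208.8, and its mean was the tenth highest. FPKM takes gene length into account, but the reads of the densest genes grew less than in proportion to depth, as given below, so the order, ranks and ratios of levels are those of the deposited values. Fabp4 lay above Lpl in 100% of samples, with a median ratio of 1.35, although the ranges of the genes overlapped. Cebpa ran from 50.8 to 144.9 FPKM with a median of 89.1, and Lpl lay above it in 100% of samples.

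Pparg ran from 44.1 to 113.999 FPKM with a median of 81.3. Cebpa and Pparg were the neighbours in this order that did not separate: Cebpa was above Pparg in 75.4% of samples, with a median ratio of 1.10. In mean level Pparg lay above 95.8% and Cebpa above 96.9% of the kept genes, whose median was 15.5 FPKM. The mean level was 287.4 FPKM (SD 43.5) for Fabp4, 211.8 (SD 28.4) for Lpl, 92.2 (SD 16.2) for Cebpa and 81.3 (SD 9.83) for Pparg, over all samples. On the log2(FPKM + 1) scale the SD over all samples was 0.18 for Pparg, 0.18 for Lpl, 0.19 for Fabp4 and 0.24 for Cebpa, against a median SD of 0.24 over the kept genes.

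The row listed as Cd36 ran from 0.677 to 5.18 FPKM with a median of 2.76, below every value of the other 4 genes. Only 16.7% of the kept genes had a lower mean. Cd36 is known as an abundant gene of adipocytes, and this level goes against the symbol, so the row is called by its listing here. The rat genome is known to hold closely related copies of Cd36, and how the authors' counting treated reads shared between copies is not given in the sources used here. Its values are therefore uncertain as a measure of Cd36. They rested on 9 to 57 reads per sample, with a median of 33. The coefficient of variation was 23.6%, where counting error alone would give one of 17.6%. The other genes rested on more reads, with medians of 867 for Pparg, 868 for Fabp4, 1111 for Cebpa and 3537 for Lpl. For Cebpa, a gene of 1 exon, the recovered length of 2673 bp was the same as the RefSeq span of the gene of that symbol.

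**Figure D1:**
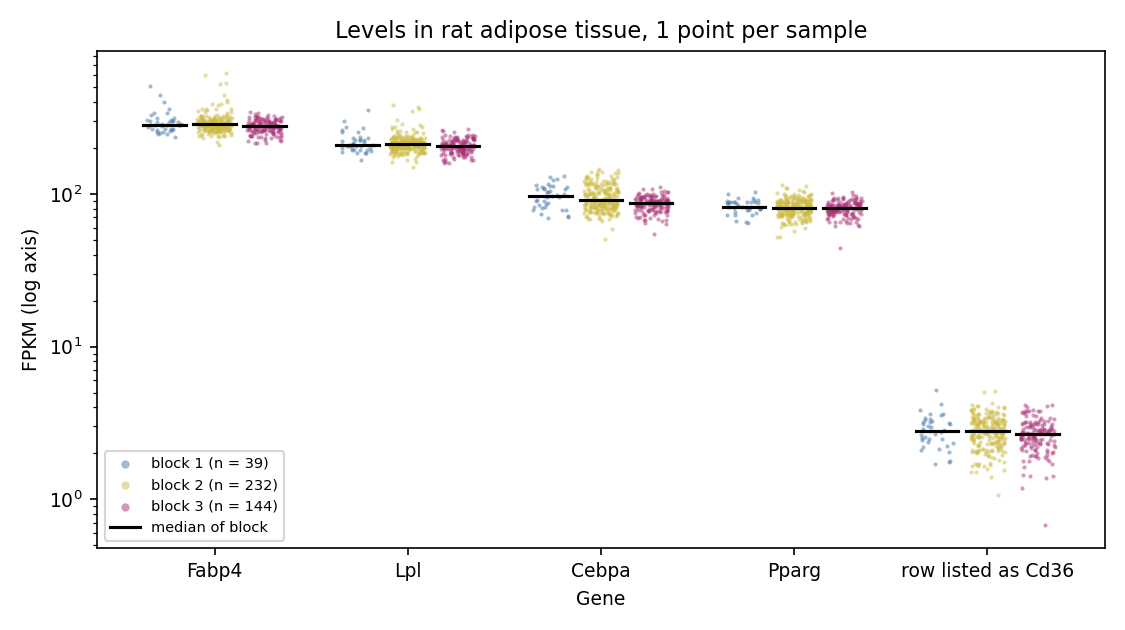
Level of each gene in FPKM (log axis) with 1 point per sample, coloured by block of title numbers, and black bars at the block medians. Fabp4 and Lpl lie highest with tails reaching 614.3 and 379.1 FPKM, Cebpa and Pparg overlap, and the row listed as Cd36 lies between 0.677 and 5.18 FPKM.

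For Fabp4, Lpl and Pparg the block medians differed by less than the SD within each block. For Fabp4 they were 283.7, 284.9 and 276.6 FPKM in blocks 1, 2 and 3, and for Lpl 210.04, 211.34 and 204.17 FPKM. For Pparg they were 82.3, 81.3 and 80.6 FPKM. Cebpa had medians of 96.4, 91.2 and 86.8 FPKM, and those of blocks 1 and 3 lay about as far apart as the SD within block 3. Its spread was also wider in block 2, with an SD of 18.1 FPKM against 9.71 in block 3. The difference in spread was not tested.

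The reads of Fabp4 and Lpl hardly grew with the depth of the sample, so that their FPKM values mostly followed depth. The deepest sample had 2.92 times the reads of the shallowest. Fabp4 had 837 reads in the shallowest sample and 926 in the deepest, which gave 614.3 FPKM in the former, the highest value of all samples, and 209.5 FPKM in the latter, the lowest. The highest Fabp4 level thus stood on fewer reads than the median sample's 868. Lpl had 2792 reads in the shallowest sample and 3660 in the deepest, or 372.3 and 150.4 FPKM.

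Across all samples Fabp4 reads ran only from 728 to 1019, and Lpl reads from 2792 to 3894. A slope of log2 reads on log2 depth (the sample's scaling factor) is 1 for a gene whose reads grow in proportion to depth. It was 0.162 (SE 0.0157) for Fabp4, 0.179 (SE 0.0107) for Lpl, 0.560 (SE 0.0535) for Cebpa, 0.603 (SE 0.0373) for Pparg and 0.708 (SE 0.0830) for the row listed as Cd36. Over the 6808 genes with a mean of at least 200 reads the median slope was 0.976, and among these 0.250% lay below Fabp4, 0.382% below Lpl, 9.61% below Cebpa and 12.2% below Pparg. The row listed as Cd36 had fewer than 200 reads and was not ranked.

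Over all samples, the denser genes Fabp4 and Lpl had lower slopes than Cebpa and Pparg. Fabp4 had a median of 1.301 reads per bp of its 667 bp, Lpl 0.963 reads per bp of 3671 bp, Cebpa 0.416 of 2673 bp and Pparg 0.378 of 2294 bp. The highest value of Fabp4 in any sample was 1.53 reads per bp, and the highest of any gene in the table was 1.595. Genes with at least 0.8 reads per bp, of which there were 35, had a median slope of 0.203, and the 823 genes with 0.3 to 0.5 reads per bp had one of 0.664. The order within each of these pairs did not follow density throughout. Without the 12 samples of fewest reads the slope was 0.245 for Fabp4 and 0.161 for Lpl, so that the denser gene had the higher one. Cebpa and Pparg, at 0.445 and 0.572, still followed density there. Within block 1 Cebpa had 0.684 (SE 0.168) and Pparg 0.641 (SE 0.0894), against the order of density. In block 3 they had 0.582 (SE 0.0723) and 0.574 (SE 0.0708), also against it, and in block 2 0.592 and 0.606, with it. Picard, a toolkit whose functions include the marking of duplicate reads, is named in the submitters' processing notes with no role, and its part in these slopes was not tested.

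**Figure D2:**
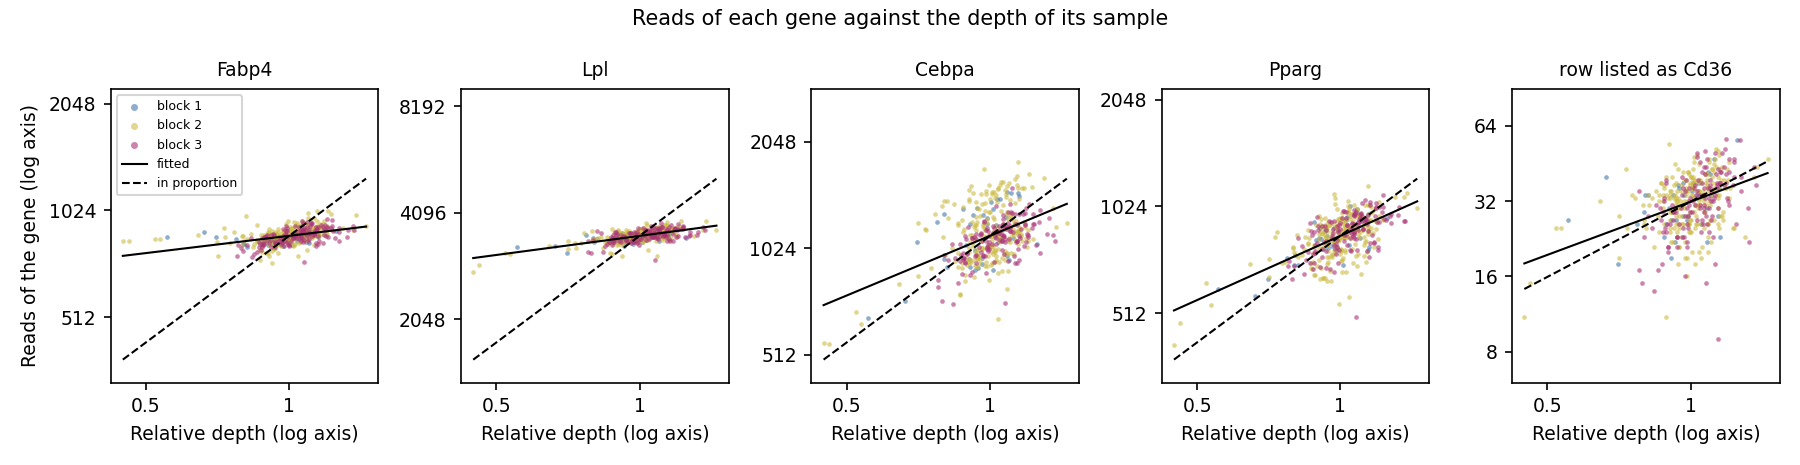
Reads of each gene in a sample (y, log axis) against the relative depth of the sample (x, its scaling factor, log axis), with the fitted line (solid) and the line of growth in proportion (dashed); colours mark the blocks. Fabp4 and Lpl lie along nearly flat lines with slopes of 0.162 and 0.179, while Cebpa and Pparg rise with slopes of 0.560 and 0.603.

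On the level scale, all 5 genes were lower in deeper samples, although the row listed as Cd36 no longer passed without the 12 samples of fewest reads (limma adjusted p = 0.0770). With limma on log2(FPKM + 1) against log2 depth over all genes, 5 of 5 had a negative coefficient at a Benjamini-Hochberg adjusted p under 0.05, where 27.5% of the 16131 genes were called lower and 68.7% were called in either direction. Per doubling of depth, Fabp4 fell by 0.84 on the log2 scale (SE 0.02, limma adjusted p = 1.08e-182) and Lpl fell by 0.82 (SE 0.01, adjusted p = 3.11e-238). Cebpa fell by 0.44 (SE 0.05, adjusted p = 1.33e-14), Pparg fell by 0.39 (SE 0.04, adjusted p = 1.77e-22) and the row listed as Cd36 fell by 0.21 (SE 0.06, adjusted p = 0.00115). The median coefficient over all genes was 0.08. FPKM and depth share the scaling factor, so a gene with a fixed number of reads has a coefficient near -1 by construction.

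Within blocks 1, 2 and 3 the coefficient was -0.95, -0.85 and -0.74 for Fabp4 and -0.89, -0.80 and -0.83 for Lpl. It was -0.35, -0.39 and -0.42 for Pparg and -0.31, -0.40 and -0.41 for Cebpa, which did not pass within block 1 (adjusted p = 0.127). For the row listed as Cd36 it was -0.38, -0.27 and 0.12, and only block 2 passed (limma adjusted p = 7.65e-04; 0.0579 and 0.482 in blocks 1 and 3). Depth took up 93.4% of the variance of Lpl and 87.3% of that of Fabp4 on the log2 scale, against 21.5% for Pparg, 14.1% for Cebpa and 2.81% for the row listed as Cd36. After a straight line in depth was taken out, the SD over samples was 0.05 for Lpl and 0.07 for Fabp4, 0.16 for Pparg, 0.22 for Cebpa and 0.25 for the row listed as Cd36, the one with the fewest reads.

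The 12 samples with fewer than 3500000 reads show this in their levels. Fabp4 ran from 353.9 to 614.3 FPKM in them and from 209.5 to 399.8 FPKM in the others, and 11 of the 12 highest Fabp4 levels were in the 12 shallowest samples. Lpl ran from 265.2 to 379.1 FPKM in the shallow samples and from 150.4 to 280.1 in the others. The read numbers of Fabp4 did not separate: 763 to 916 in the shallow samples, 728 to 1019 in the others. For Cebpa, 2 of the 12 highest levels were in the 12 shallowest samples, and for Pparg 5. Without the shallow samples the slope of Fabp4 reads on depth rose from 0.162 to 0.245 (SE 0.0192), and that of Lpl was 0.161 (SE 0.0137).

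The ratio of the FPKM of Fabp4 to that of Lpl is a ratio of a pair of genes whose reads hardly grew with depth, so its small spread is no measure of how steady their expression was. It ran from 1.23 to 1.65 with a median of 1.35, and its coefficient of variation was 3.73%, where the counting error of the 2 read numbers gives 3.79%. Block medians were 1.34, 1.36 and 1.35. The slope of the log2 ratio on log2 depth was -0.02 (SE 0.01). The ratio of Cebpa to Pparg, whose reads grew more with depth, ran from 0.823 to 1.88 with a median of 1.10 and a coefficient of variation of 15.4%, against 4.59% from counting error, and it had little slope on depth (-0.04, SE 0.05). Lpl over Pparg, a dense gene over a less dense one, fell by 0.42 per doubling of depth (SE 0.04).

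Around their own lines of reads on depth, the genes differed in how far they exceeded counting error. The variance of reads was 29.7 times the counting variance for Cebpa and 9.56 times for Pparg. It was 3.41 times for Lpl, 1.86 times for Fabp4 and 1.74 times for the row listed as Cd36. These multiples grow with the number of reads and do not rank the genes. No gene, with log2 reads removed, split into clear modes: Cebpa was described better by 2 normal components than by 1 (difference in BIC of 13.5), but their means lay 2.51 SDs apart, and for the other 4 genes the difference was below 10.

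Levels of the genes were compared across samples in 10 pairs. Pearson's r of log2(FPKM + 1) was positive in all 10 and passed in 8 (two-sided permutation p with 100000 permutations, Benjamini-Hochberg adjusted over the 10 pairs); the exceptions were the row listed as Cd36 with Pparg (r = 0.0538, permutation p = 0.274) and with Cebpa (r = 0.0252, permutation p = 0.610). The weakest r that passed was 0.209, and 13.5% of all pairs of kept genes had an r at or above it and 13.1% one at or below its negative. A smaller r can also pass over these samples, as 0.138 did with log2 reads removed. The share of all pairs that would pass the test was not computed and can be larger. The 5 genes were chosen for a shared role, and pairs of them share genes, so the counts are set side by side with no test. The smallest p the permutations can give is 1e-05. The pairs are correlations over samples that share a scaling factor, and title numbers shared by samples may mark related animals.

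Lpl and Fabp4 had the closest relation, with r = 0.959 and Spearman's rho = 0.943 (permutation p = 1e-05 for both, adjusted p = 1.43e-05 for r and 1.67e-05 for rho). Without the 2 samples farthest from the median Lpl level r was 0.957. Within blocks 1, 2 and 3 it was 0.974, 0.956 and 0.964. With log2 reads removed from both, r was 0.604 and rho 0.598 (permutation p = 1e-05 for both), and r within the blocks was 0.377, 0.547 and 0.735. The value in block 1 did not pass (adjusted p = 0.144).

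Pparg and Cebpa had r = 0.526 and rho = 0.502 (permutation p = 1e-05 for both, adjusted p = 1.43e-05 and 1.67e-05). Without the 2 samples farthest from the median Pparg level r was 0.506, and within blocks 1, 2 and 3 it was 0.447, 0.519 and 0.605. With log2 reads removed r was 0.424 and rho 0.388 (permutation p = 1e-05 for both), and r within the blocks was 0.352, 0.435 and 0.510. In block 1 this no longer passed (adjusted p = 0.144).

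Over all samples, r between regulators and lipid genes was smaller with depth removed; the difference was not tested. Pparg with Lpl went from r = 0.508 to 0.1998, Pparg with Fabp4 from 0.523 to 0.245, Cebpa with Lpl from 0.431 to 0.254 and Cebpa with Fabp4 from 0.451 to 0.292. All 4 still passed (adjusted p from 2e-05 to 6.67e-05, permutation test). With log2 reads removed, the weakest r that passed among all pairs of the listed genes was 0.138. Of all pairs of kept genes, 19.2% had an r at or above it and 19.3% one at or below its negative. Here too the share that would pass the test was not computed and can be larger. Without the 2 farthest samples the 4 values of r without depth were 0.148, 0.209, 0.238 and 0.274. Over all samples rho without depth was 0.118, 0.162, 0.214 and 0.241. The blocks disagreed in size. In block 3 the values without depth were 0.415, 0.280, 0.627 and 0.636, against 0.544, 0.518, 0.591 and 0.636 as the values stand, so that the pairs of Cebpa were no smaller there. Without depth, in block 2 they were 0.121, 0.276, 0.160 and 0.213, and in block 1 they were -0.148, -0.230, 0.137 and 0.0168, of which none passed. The difference between blocks was not tested.

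The row listed as Cd36 went weakly with Lpl (r = 0.217, rho = 0.149, permutation p = 1e-05 and 0.00253) and with Fabp4 (r = 0.209, rho = 0.134, permutation p = 5e-05 and 0.00637). Adjusted p-values of r were 1.43e-05 and 6.25e-05. With the title number as a replicate block neither passed (permutation test, adjusted p = 0.311 and 0.360). Within blocks 1, 2 and 3, r was 0.363, 0.280 and -0.000601 with Lpl, and 0.367, 0.254 and -0.0106 with Fabp4, so that neither relation held within block 3. With log2 reads removed r was 0.191 and 0.138, and in block 3 it was 0.1998 and 0.185. Without the 2 farthest samples of block 1, its r with Lpl as the values stand was 0.0573, so that it rested on those samples.

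**Figure D3:**
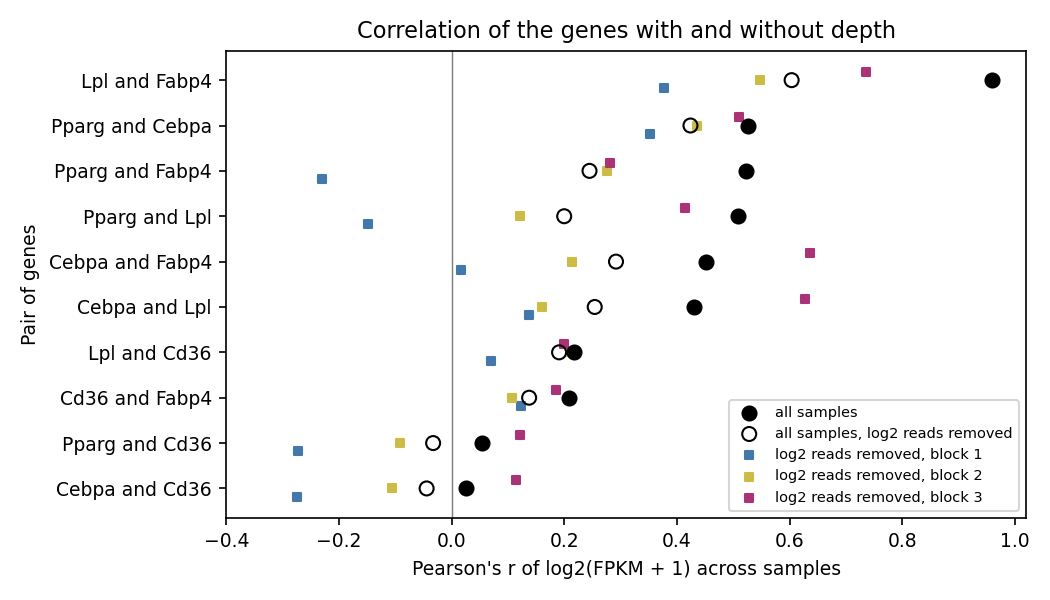
Pearson's r of log2(FPKM + 1) for the 10 pairs of genes over all samples (filled circles), with log2 reads removed from both genes (open circles), and the latter within each block (squares, shifted vertically for clarity). Lpl with Fabp4 moves from 0.959 to 0.604, Pparg with Cebpa from 0.526 to 0.424, and the squares of block 3 lie highest for Cebpa with Lpl and with Fabp4.

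The genes with the most similar pattern over all samples, by Pearson's r on log2(FPKM + 1) among the kept genes, are given by identifier, since no table used here pairs the identifiers with symbols. ENSRNOG00000010079 was closest both to Lpl (r = 0.981) and to Fabp4 (r = 0.974), and it too was dense, with a mean of 261.7 FPKM and 1.19 reads per bp. With log2 reads removed it was still the closest to both, with r = 0.735 and 0.753. Genes with r above 0.5 made up 8.77% of the kept genes for Fabp4 and 7.75% for Lpl, and 0.564% and 1.35% with log2 reads removed.

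For Cebpa the closest gene as the values stand was ENSRNOG00000009068, with r = 0.897. With log2 reads removed it was the second closest to Cebpa, with r = 0.882. Both values lay above the r of Cebpa with any of the other 4 rows. ENSRNOG00000009068 had a mean of 94.2 FPKM and 0.430 reads per bp. Genes with r above 0.5 to Cebpa made up 2.54% of the kept genes, and 2.17% with log2 reads removed. For Pparg the share went from 1.82% to 0.49%, and the highest r of any gene to Pparg was 0.730 and 0.708. For the row listed as Cd36, 1 gene exceeded 0.5 on either scale (r = 0.692 and 0.684), and it is not named here. These are descriptions, with no test, and samples in them share library depth.

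Along the title numbers 4 of the 5 genes were lower at the high end, and only for Cebpa did the change pass and keep its sign with depth in the model. With limma over the rank of the title number (0 at the lowest, 1 at the highest), 4 of 5 were called lower at an adjusted p under 0.05, where 30.5% of all genes were called lower and 61.8% in either direction. Cebpa fell by 0.30 on the log2(FPKM + 1) scale (SE 0.04, limma adjusted p = 1.26e-13), Fabp4 fell by 0.18 (SE 0.03, adjusted p = 4.59e-08), Lpl fell by 0.14 (SE 0.03, adjusted p = 4.64e-06) and Pparg fell by 0.11 (SE 0.03, adjusted p = 2.85e-04). The row listed as Cd36 had a change of -0.07 (SE 0.04, adjusted p = 0.157). The changes of the 3 genes other than Cebpa were smaller than 1 SD of their level over samples.

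With log2 reads as a covariate Cebpa fell by 0.23 (SE 0.04, limma adjusted p = 1.17e-08), where 8360 of the 16131 genes were called, 4195 of them lower. The change was -0.01 for Fabp4 (SE 0.01, adjusted p = 0.548) and -0.04 for Pparg (SE 0.03, adjusted p = 0.276), and neither passed. Lpl turned to a rise of 0.02 (SE 0.01, adjusted p = 0.0138), which with a cubic polynomial of depth was 0.01 (adjusted p = 0.472). The fits within blocks had no depth term, and their slopes are per full rank scale of all samples. A block covers only part of that scale, so the change inside a block is smaller than its slope. Within block 2 alone the slope was -0.56 for Cebpa (limma adjusted p = 5.28e-08) and -0.38 for Pparg (adjusted p = 2.21e-07). It was -0.31 for Fabp4 (adjusted p = 6.76e-05) and -0.21 for Lpl (adjusted p = 0.00415). Of the 16131 genes, 9114 were called in block 2, 4539 of them lower. The part of depth in the block 2 slopes was not tested. Within blocks 1 and 3 none of the 5 passed in limma, where fewer samples and a narrower part of the rank scale were fitted. The SE of the Cebpa slope was 1.43 in block 1 and 0.15 in block 3, against 0.09 in block 2. Over all 16131 genes 0 were called in block 1 and 1034 in block 3. The lowest unadjusted p of the 5 in limma was 0.0880 in block 1 and 0.0553 in block 3.

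Whether the slopes along the title numbers differed between blocks was tested with an interaction term. In limma's F test 1 of 5 genes passed, Pparg with an adjusted p of 0.0468, where 23.97% of all genes were called. The slopes of Pparg within blocks 1, 2 and 3 were 0.09 (SE 0.92), -0.38 (SE 0.07) and 0.12 (SE 0.15). With log2 reads as a covariate the test of Pparg had an adjusted p of 0.135, and without the filter on low values it had 0.0522. Lpl passed in the fit with that covariate (limma adjusted p = 1.08e-04), and not without it. For Cebpa the adjusted p was 0.187, for Fabp4 0.553, for Lpl 0.814 and for the row listed as Cd36 0.319.

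Samples with the same title number resembled each other in Cebpa and Pparg with and without depth in the model, and Lpl and Fabp4 passed only without it, in a test that most genes of the table passed. There were 89 such numbers. In limma's F test of the title number, 4 of 5 genes passed, where 57.5% of all genes were called: Cebpa (adjusted p = 3.81e-04), Fabp4 (adjusted p = 6.79e-04), Lpl (adjusted p = 7.83e-04) and Pparg (adjusted p = 0.00772). The row listed as Cd36 did not pass (adjusted p = 0.101). With log2 reads as a covariate 8107 of the 16131 genes were called in limma's F test. Cebpa (adjusted p = 3.50e-05) and Pparg (adjusted p = 0.0117) passed, and Lpl (adjusted p = 0.714) and Fabp4 (adjusted p = 0.222) did not.

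Resemblance, the mean product of the deviations of both samples of a same-number pair over their mean square, was 0.365 for Lpl, 0.355 for Fabp4, 0.352 for Cebpa, 0.255 for Pparg and 0.150 for the row listed as Cd36, against a median of 0.228 over the kept genes. The log2 reads of a sample, which are no property of a gene, had a resemblance of 0.456. Without log2 reads the value was 0.449 for Cebpa and 0.292 for Pparg, and 0.107 for Fabp4 and 0.0517 for Lpl, with a median of 0.198 over the kept genes. The values of Pparg lay nearer to those medians than the values of Cebpa did. With a spline of the title number rank removed as well, the value was 0.363 for Cebpa and 0.273 for Pparg. It was 0.0623 for Fabp4, -0.0984 for Lpl and 0.0910 for the row listed as Cd36, against a median of 0.147. In limma's F test so adjusted, Cebpa (adjusted p = 0.0103) and Pparg (adjusted p = 0.0242) passed, where 4964 of the 16131 genes were called. What the resemblance comes from was not tested. Within blocks 1, 2 and 3, with 9, 49 and 47 pairs, Cebpa had 0.548, 0.355 and 0.269 and Pparg 0.241, 0.275 and 0.235. For the row listed as Cd36 the blocks gave -0.0149, 0.461 and -0.0935. For Cebpa the SD between samples of 1 title number was 0.18 on the log2 scale, against 0.24 over all samples.

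**Figure D4:**
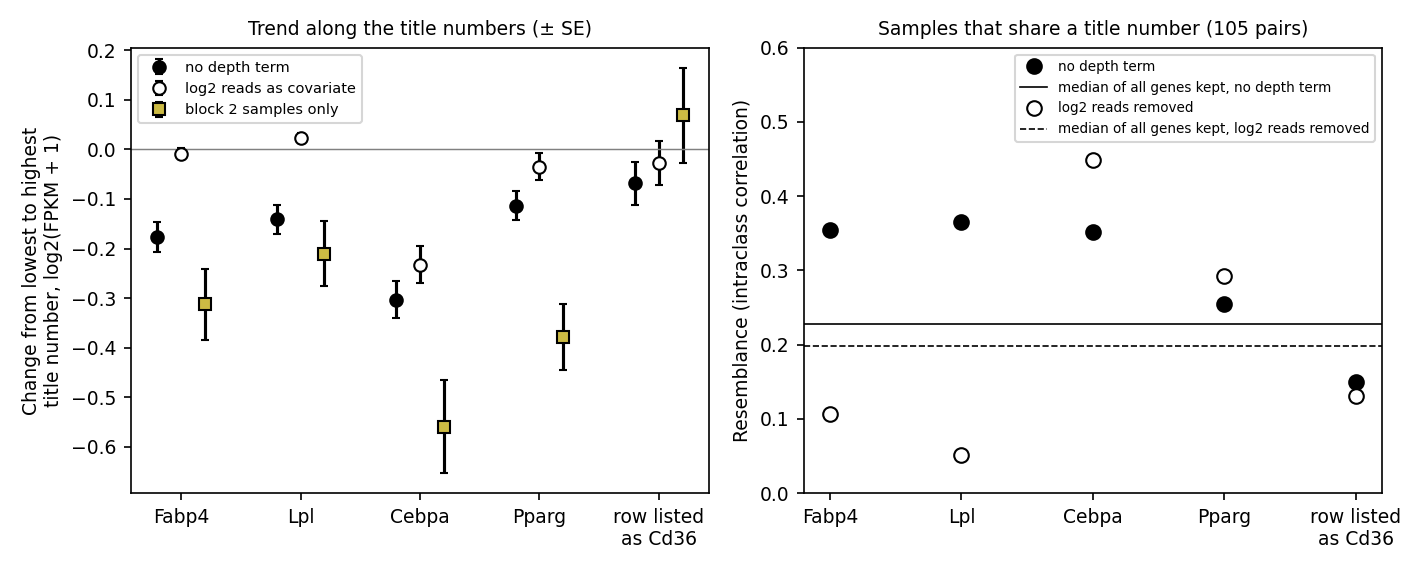
Left, change in log2(FPKM + 1) from the lowest to the highest title number with its SE, without a depth term (filled circles) and with log2 reads as covariate (open circles). Squares give the slope in block 2 samples alone, without a depth term, per full rank scale, of which block 2 covers only a part. Right, resemblance of the same-number pairs with and without log2 reads removed, and lines at the medians of the kept genes; Cebpa is at 0.352 and 0.449, while Fabp4 goes from 0.355 to 0.107 and Lpl from 0.365 to 0.0517.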

How the data were processed

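RNA of 415 frozen adipose tissue samples was extracted with Trizol and read as 75 bp single ends, per the labels' protocols. STAR, Picard, featureCounts and DESeq2 are named in the submitters' processing notes without a role; build and annotation are not given in the sources used here. The deposited table was taken as FPKM from its values: each is a whole number of reads over a whole-number gene length and 1 factor per sample, the median-of-ratios size factor times the geometric mean of total reads. Recovered reads were whole for 100% of values within a tolerance of 0.001, in simulated data for 100% of 3000 genes.

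Values were analysed as log2(FPKM + 1), with limma 3.58.1 in R 4.3.3 fitted on the 16131 genes kept. Of 200 changed genes simulated per test, limma found 200 for depth, 198 for the trend, 198 for the trend by block and 200 for same-number differences. Of the unchanged genes it called 9, 23, 15 and 24 in the same order. The simulated noise was normal and independent between genes and samples, and the effects had set sizes. The counts therefore do not measure how limma does on the data themselves. Permutations, slopes and figures used Python 3.11.15, matplotlib 3.10.9, scipy 1.17.1, scikit-learn 1.9.0, numba 0.67.0, numpy 2.4.6 and pandas 2.3.3. Blocks held 39, 232 and 144 samples; 186 samples shared a title number, in 105 pairs. Slopes used log2(reads + 0.5). Reads per sample ranged from 2139163 to 6248214; intervals from reads cover counting error only.

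The members and lists were chosen with earlier results of these data known. By the rule for named genes the members are named, with at most 2 identifiers of similar genes, picked after their values were seen. Lists of other pathway genes and of cell type markers were planned and not run, since the RefSeq gene table (GRCr8) gave symbols for 0 of the 18358 identifiers.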

Additional observations from a re-analysis of the deposited data

Results flagged for a closer look

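The slope of Pparg along the title numbers differed between the 3 blocks of samples in limma's F test of the interaction (adjusted p = 0.04681), with -0.38 in block 2 and 0.12 in block 3. Over its 4 alternatives the adjusted p ran from 0.0419 to 0.135. The blocks come from gaps in the numbering and are no groups of the study. It was 0.135 with log2 reads as a covariate; the part of depth was not otherwise tested.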

How the results depend on the processing

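Counts over all genes stayed within 1.5 times in 25 of 30 alternatives. Depth calls were 6756 in block 1 and 4825 in block 3 against 11078. Trend calls were 0 in block 1 (limma, 1478 at an unadjusted p under 0.05) and 1034 in block 3 against 9964. Both blocks held fewer samples, and their trend fits also covered only a narrow part of the rank scale. Same-number calls were 4964 against 9280 with a spline of rank and log2 reads removed; the cause was not tested. The number of correlated pairs, 8, ran from 6 to 8 in 11 alternatives and was 0 in block 1 with log2 reads removed. With the title number as a replicate block it was 6: the row listed as Cd36 no longer passed with Lpl (r = 0.139) and Fabp4 (r = 0.127), and Pparg with Cebpa had r = 0.603.

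Signs turned, mostly near 0, for 29 values of single genes or pairs. Trends turned for Pparg in blocks 1 and 3 (0.0949 and 0.12), Cebpa in block 1 (1.93, SE 1.43), Lpl with log2 reads (0.0238) or a cubic of depth (0.0071), and the row listed as Cd36 in blocks 2 and 3 (0.0688 and 0.24), whose depth coefficient turned in block 3 (0.12). With log2 reads removed, block 1 gave r = -0.148 for Pparg with Lpl and -0.230 with Fabp4. Pparg with the row listed as Cd36 gave -0.0329 with log2 reads removed, -0.272 and -0.0922 so within blocks 1 and 2, -0.0305 with a cubic and -0.00431 without the shallow samples. Cebpa with that row gave -0.0444, -0.274, -0.105, -0.0412 and -0.000829 in the same order, and -0.115 and -0.0180 in blocks 1 and 2 as the values stand. In block 3, that row gave -0.000601 with Lpl and -0.0106 with Fabp4. Resemblance turned for Lpl with spline and reads removed (-0.0984) and in block 1 (-0.238), for Fabp4 in block 1 (-0.284), and for the row listed as Cd36 in blocks 1 and 3 (-0.0149 and -0.0935). The depth call of that row was lost without the shallow samples (limma adjusted p = 0.0770). Alternatives for cell type markers were not run, as no symbols were at hand.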
